A study of Homo sapiens with 6 samples.

Results

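The centromeres of chromosomes 3, 6, 7, 10 and 16 were examined for sites of BrdU-labelled, newly made DNA in control and ERCC6L2-/- U2OS cells. The members are all consensus peaks of both genotypes whose midpoint lies in 1 of 5 windows of the hg38 genome, at 90.2 to 94 Mb of chromosome 3, 58.4 to 60.3 Mb of chromosome 6, 57.9 to 62.2 Mb of chromosome 7, 38.5 to 41.9 Mb of chromosome 10 and 35.2 to 38.4 Mb of chromosome 16. The rule used positions only, and it found 565 peaks of 18840 in all, of which 253 were among the 10285 peaks of the control list and 312 among the 8555 of the ERCC6L2-/- list. A peak that overlapped a peak of the other list by at least 1 base was called shared, and otherwise it was called control-only or ERCC6L2-/- only.

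U2OS is a human osteosarcoma cell line. Wild-type cells (the control, 3 samples) and ERCC6L2-/- cells (3 samples) all received a 2 h pulse of BrdU, a thymidine analogue, and the labelled DNA was pulled down with an antibody to BrdU and sequenced. The ERCC6L2-/- lines were CRISPR/Cas9 clones grown from single cells, and the clone used here is not stated. Each list merges the 3 samples of its genotype, so the lists hold no spread between replicates, the read depth is unknown, and the loss of ERCC6L2 cannot be checked from them.

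Human centromeres are built on alpha-satellite, a short monomer that is repeated head to tail, and blocks of several diverged monomers are themselves repeated as a higher-order repeat. Some monomers carry the CENP-B box, a 17-base site bound by centromere protein B, and the centromeric nucleosome with the histone variant CENP-A sits on part of such an array. The flanking pericentromere holds other satellites, among them the classical satellites made of the pentamer GGAAT. ERCC6L2 is an ATPase of the SNF2 family, the family of chromatin remodelling enzymes, and the study asked where nascent DNA differs when it is absent.

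The box that CENP-B binds had the same commonest form in the peaks of 4 of the 5 windows. It is shown because it lets the arrays be compared by a feature that the choice of peaks did not use. The commonest 17-base box was CTTCGTTGGAAACGGGA on chromosome 3 (13 of 15 boxes in peaks), chromosome 7 (583 of 891), chromosome 10 (420 of 594) and chromosome 16 (5 of 10). The peaks of chromosome 6 held none. On chromosome 7 a second form, CTTCGTTGCAAACGGGG, made up 294 of the 891 boxes. The second form was CTTCGTTGGAAGCGGGA on chromosome 10 (165 of 594) and CTTCGTTGGAAACGGGT on chromosome 16 (4 of 10). For each of these 4 chromosomes 1 monomer length is printed around the box nearest the middle of the widest ERCC6L2-/- only peak that has one, on the plus strand of hg38, with the box in capitals.
Chromosome 3, chr3:92976662-92976832: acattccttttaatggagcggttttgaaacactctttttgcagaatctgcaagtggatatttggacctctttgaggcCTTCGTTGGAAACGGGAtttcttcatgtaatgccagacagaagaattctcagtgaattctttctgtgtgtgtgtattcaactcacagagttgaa
Chromosome 7, chr7:59607066-59607236: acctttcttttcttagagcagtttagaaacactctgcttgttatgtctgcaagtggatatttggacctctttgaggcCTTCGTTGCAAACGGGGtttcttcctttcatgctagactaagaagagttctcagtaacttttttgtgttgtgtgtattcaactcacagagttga
Chromosome 10, chr10:41418831-41419001: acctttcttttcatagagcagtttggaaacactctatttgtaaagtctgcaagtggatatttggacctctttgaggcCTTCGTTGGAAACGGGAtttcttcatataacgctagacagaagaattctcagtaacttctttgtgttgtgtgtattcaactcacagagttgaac
Chromosome 16, chr16:36895951-36896121: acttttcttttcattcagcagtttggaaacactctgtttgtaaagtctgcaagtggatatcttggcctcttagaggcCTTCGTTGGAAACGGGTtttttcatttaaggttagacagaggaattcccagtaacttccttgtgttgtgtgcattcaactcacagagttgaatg
The 4 stretches lay 18 to 30 edits apart (substitutions, insertions or deletions). The second kind of sequence under these peaks had no such box. It is shown by the middle 60 bases of the widest ERCC6L2-/- peak in GGAAT satellite on chromosomes 7 and 10, with the pentamer in capitals.
Chromosome 7, chr7:61041451-61041510, plus strand: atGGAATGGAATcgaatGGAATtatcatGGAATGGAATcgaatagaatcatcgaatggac
Chromosome 10, chr10:41894607-41894666, plus strand: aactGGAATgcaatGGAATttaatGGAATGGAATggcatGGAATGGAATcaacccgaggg

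Nearly all peaks lay on 2 of the 5 chromosomes. The chromosome 7 window held 109 control and 149 ERCC6L2-/- peaks, and the chromosome 10 window held 122 and 133. Chromosome 16 followed with 17 and 18 peaks, chromosome 3 had 4 and 10, and chromosome 6 had 1 and 2. The ratio of ERCC6L2-/- to control peaks was 1.37 on chromosome 7 (exact 95% interval 1.06 to 1.77), 1.09 on chromosome 10 (0.846 to 1.41) and 1.06 on chromosome 16 (0.515 to 2.19). For comparison, the ratio of the whole lists was 0.832. The interval of chromosome 3, at a ratio of 2.5, ran from 0.721 to 10.9. None of the 10 pairs of chromosomes passed a test of this ratio (two-sided Fisher's exact tests with Benjamini-Hochberg adjustment over the 10 pairs, 0 pairs under 0.05 before or after adjustment). Peaks are not replicates, and peaks of 1 array share sequence, so each such test compares entries of the lists and not the conditions. The intervals cover counting error only.

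**Figure D1:**
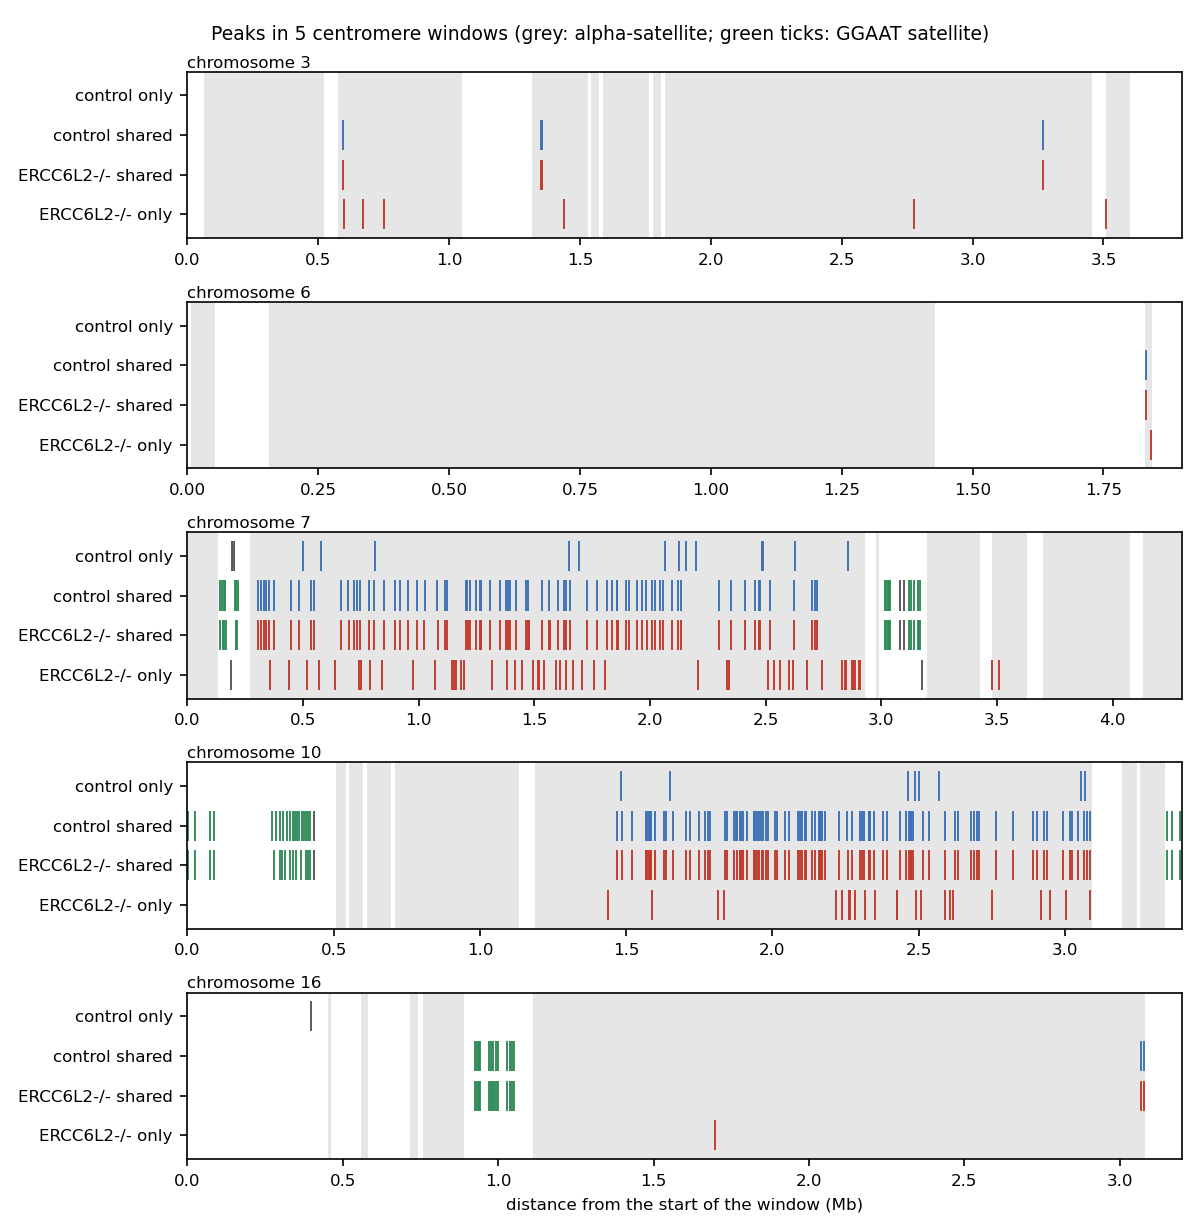
Each tick is the midpoint of 1 peak, plotted against its distance in Mb from the start of the window, in rows for list and class. Grey marks alpha-satellite of the reference, green ticks are peaks in GGAAT satellite, dark grey ticks are peaks in other sequence, and red or blue ticks are peaks in alpha-satellite. Peaks are spread along the alpha-satellite arrays of chromosomes 7 and 10, while the arrays of chromosomes 3, 6 and 16 hold 2 or fewer control peaks in their longest run.

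The share of ERCC6L2-/- only peaks differed between the chromosomes. Over the whole ERCC6L2-/- list 18.9% of peaks overlapped no control peak, and in the 5 windows 84 of 312 did (26.9%, 95% Wilson interval 22.3 to 32.1%). The share was 35.6% on chromosome 7 (53 of 149, 28.3 to 43.5%) and 17.3% on chromosome 10 (23 of 133, 11.8 to 24.6%). It was 60% on chromosome 3 (6 of 10, 31.3 to 83.2%), 5.56% on chromosome 16 (1 of 18, 0.988 to 25.8%) and 50% on chromosome 6 (1 of 2). Chromosome 7 thus lay above the whole list and chromosome 10 near it. Of the 10 pairs of chromosomes 4 differed by a two-sided Fisher's exact test adjusted over the 10. By this exact test these were 7 against 10 (adjusted p = 0.00722), 7 against 16 (adjusted p = 0.0195), 3 against 10 (adjusted p = 0.0167) and 3 against 16 (adjusted p = 0.0165). ERCC6L2-/- peaks at the score ceiling alone were also taken, each still classed against the full control list. The shares of chromosomes 7 and 10 were then 14.9% and 8.33% and did not pass the test (Fisher's exact test, adjusted p = 0.622).

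Control-only peaks took a smaller share of every window than of the list as a whole. They made up 32.8% of the whole control list and 24 of the 253 control peaks in the windows (9.49%, 6.46 to 13.7%). Their share was 13.8% on chromosome 7 (15 of 109), 6.56% on chromosome 10 (8 of 122) and 5.88% on chromosome 16 (1 of 17), and chromosomes 3 and 6 had none among 4 peaks and 1 peak. None of the 10 pairs passed a test of this share (Fisher's exact test, 0 pairs under 0.05 before or after adjustment).

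**Figure D2:**
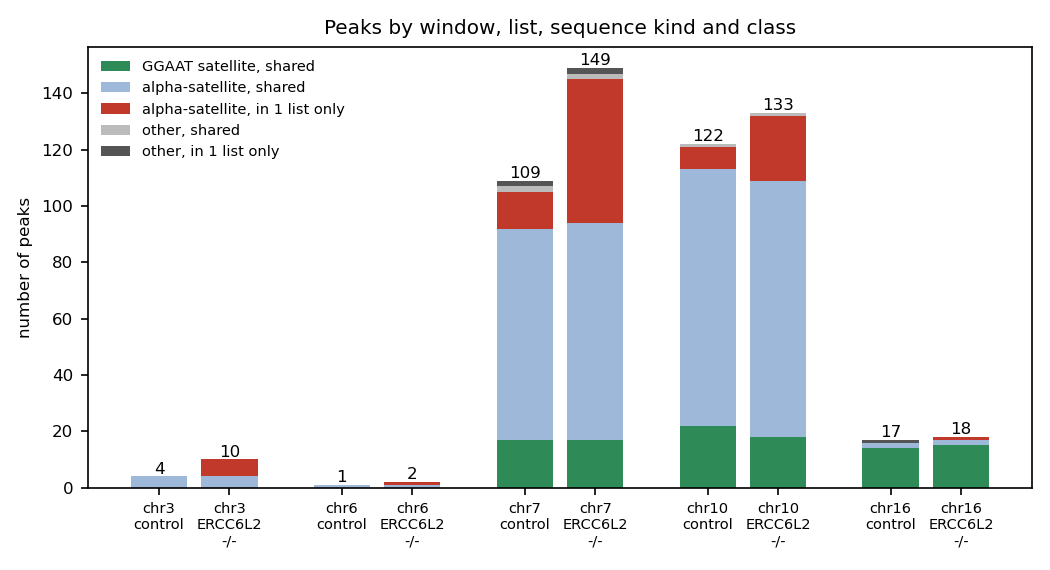
Number of peaks in each window (vertical axis) for the control and ERCC6L2-/- lists, stacked by sequence kind and class, with the total above each bar. Red, alpha-satellite peaks in 1 list only, counts 51 of 149 in the ERCC6L2-/- bar of chromosome 7 and 23 of 133 in that of chromosome 10, while GGAAT satellite (green) is shared throughout.

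Most peaks of 1 list only lay in alpha-satellite. A peak was placed in alpha-satellite where its midpoint fell in a run of that repeat, and in GGAAT satellite where it held at least 20 of the pentamer GGAAT or its complement per kb. Alpha-satellite held 194 of the control and 257 of the ERCC6L2-/- peaks in the windows, and 82 of the 84 ERCC6L2-/- only and 21 of the 24 control-only peaks lay there. The other 2 and 3 lay outside both satellites. GGAAT satellite held 53 control and 50 ERCC6L2-/- peaks, and every one was shared. Taken as 3 counts of the total, these counts of 0 allow a control-only share of up to 5.66% and an ERCC6L2-/- only share of up to 6%, and the 95% Wilson intervals reach 6.76% and 7.13%. These limits cover counting error only and treat neighbouring peaks as separate draws. Median widths in GGAAT satellite were 5082 (control) and 4545 bases (ERCC6L2-/-), against 1833.5 and 1731 bases in alpha-satellite. A wide peak has more chance to touch another by 1 base, so this class cannot compare the 2 satellites on equal terms. The bases covered in GGAAT satellite were 247.0 and 246.7 kb on chromosome 10, 98.4 and 91.2 kb on chromosome 7, and 56.7 and 51.9 kb on chromosome 16 for control and ERCC6L2-/-. In alpha-satellite of chromosome 7 they were 183.8 and 270.8 kb, a ratio of 1.47, and in that of chromosome 10 they were 190.1 and 199.95 kb, a ratio of 1.05. Within alpha-satellite alone, the ERCC6L2-/- only share of chromosome 7 (39.8%) still exceeded that of chromosome 10 (20.2%; Fisher's exact test, adjusted p = 0.0123), but this was then the 1 pair of the 10 that passed. Of the 18 ERCC6L2-/- peaks of chromosome 16, 15 lay in GGAAT satellite, and in alpha-satellite alone its ERCC6L2-/- only share was 33.3% (1 of 3).

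The GGAAT peaks were the widest of the windows. On chromosome 10 the widest spanned 42675 bases in control and 42656 bases in ERCC6L2-/- cells, both at the score ceiling and with nearly the same ends (chr10:41873287-41915961 and chr10:41873309-41915964). This block runs past the end of the window. Its sequence held 109 pentamers per kb, against 68.2 in the median control GGAAT peak of that chromosome. The median GGAAT peak was 9605 bases wide in control and 9523 in ERCC6L2-/- cells on chromosome 10, 4231 and 3550 on chromosome 7, and 3933 and 3361 on chromosome 16. Where 1 GGAAT peak of a list matched 1 of the other, the union of the pair was shared to a median of 98.6% on chromosome 10 (13 pairs), 91.0% on chromosome 7 (14 pairs) and 90.4% on chromosome 16 (11 pairs). The ERCC6L2-/- peak was the wider one in 7 of the 13 pairs of chromosome 10, 4 of the 14 of chromosome 7 and 1 of the 11 of chromosome 16.

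Most peaks of chromosome 7 lay in its array, the longest run of alpha-satellite in the window (chr7:58170001-60828000). It held 88 control and 126 ERCC6L2-/- peaks, which covered 6.92% and 10.1% of its bases. Its monomers are organised as a 6-monomer repeat of 1022 bases. Of 132 windows of 500 bases, 89.4% were at least 95% identical to the sequence 1 repeat on. None reached that identity 1 monomer on. Over all alpha-satellite of the window, the 51 ERCC6L2-/- only peaks, of which 2 lay outside this run, had a median width of 1873 bases, or 1.83 repeats, and the 77 shared ERCC6L2-/- peaks had a median of 2221 bases, or 2.17 repeats. All 6 monomers of the repeat were covered to a like degree, which largely follows from the widths of the peaks. Of the ERCC6L2-/- only peaks 86.3% were at least 1 repeat wide, and of the shared ERCC6L2-/- peaks 93.5%. Such a peak covers every monomer wherever it lies, so the evenness cannot tell the monomers apart. ERCC6L2-/- only peaks covered 3.42 to 3.94% of the positions of each monomer, and all ERCC6L2-/- peaks covered 9.41 to 10.7%.

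The ERCC6L2-/- only peaks of chromosome 7 were spread over the whole array with the highest share at its distal end. In 4 equal parts of the array, counted from the short-arm side, the share was 31.0% (9 of 29), 40% (16 of 40), 24.1% (7 of 29) and 60.7% (17 of 28, Wilson interval 42.4 to 76.4%). Control-only shares in the same order were 13.0% (3 of 23), 0% (0 of 22), 21.4% (6 of 28) and 26.7% (4 of 15). The Wilson interval of the last share was 10.9 to 52.0%. Both lists thus had their highest share at the distal end, and differences between the parts were not tested. The control list had 23, 22, 28 and 15 peaks in these parts, so the fourth had the fewest control peaks but about as many ERCC6L2-/- peaks as the first. In the fourth part 9 ERCC6L2-/- only peaks followed each other without a shared one over 168.6 kb (chr7:60640346-60808994), the longest such stretch of the 5 windows. These 9 peaks were 1260 to 3034 bases wide, held 3 to 9 CENP-B box cores each, and had scores of 101.5 to 285.6, none at the ceiling. A single control peak lay among them, overlapping none. The widest ERCC6L2-/- only peak of chromosome 7 lay elsewhere in the array, at chr7:59605298-59609257, 3960 bases wide with 12 box cores and a score of 180.04. The widest control-only peak was chr7:58474298-58477793, 3496 bases wide with 9 box cores and a score of 140.2.

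**Figure D3:**
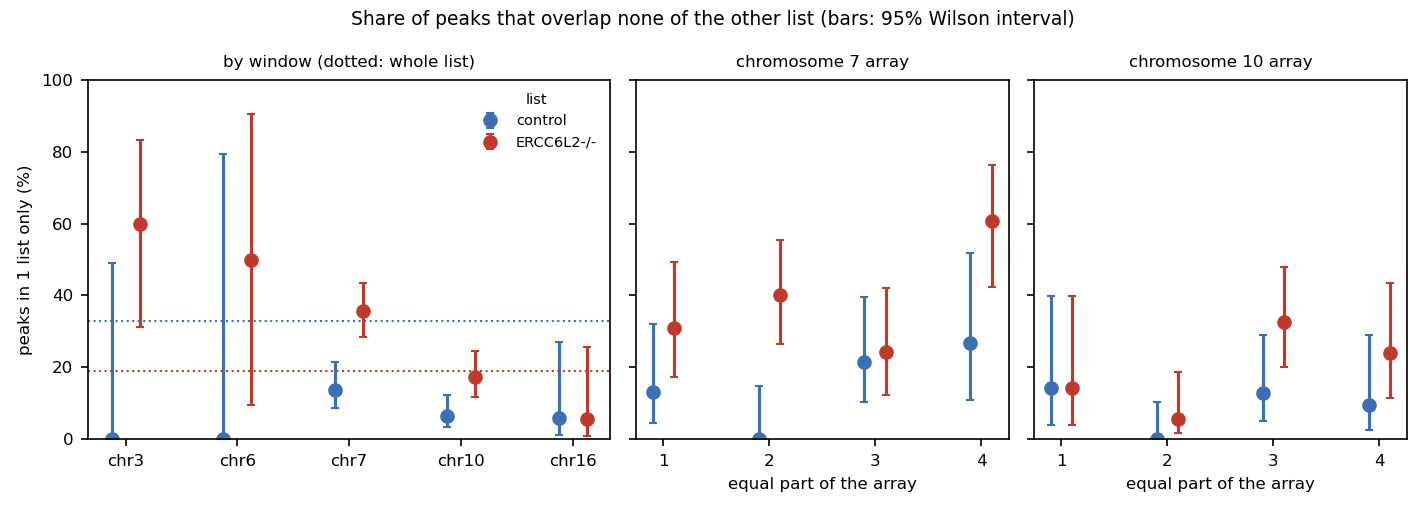
Share of peaks that overlapped none of the other list, in percent, by window (left) and by equal part of the array of chromosomes 7 and 10 (middle and right), for control (blue) and ERCC6L2-/- (red), with 95% Wilson intervals. Dotted lines give the shares of the whole lists, 32.8% for control and 18.9% for ERCC6L2-/-. The fourth part of chromosome 7, at 60.7%, and the second part of chromosome 10, at 5.71%, are the extremes among these parts for ERCC6L2-/-.

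On chromosome 10 the array held narrower ERCC6L2-/- only peaks. Its longest run of alpha-satellite (chr10:39687001-41593000) held 99 control and 114 ERCC6L2-/- peaks, which covered 9.97% and 10.5% of its bases. The reference sequence of this run has no single repeat. The best of the lengths from 1 to 20 monomers, 18 monomers, gave at least 95% identity in 33.3% of 96 windows. Lengths of 6, 12 and 8 monomers gave it in 26.3%, 26.0% and 21.9%. Its ERCC6L2-/- only peaks were narrow, with a median of 620 bases (range 332 to 1729) against 1801 bases for the shared ERCC6L2-/- peaks of the same run. A narrow peak has less chance to touch another, so width and class are not independent. Over 4 equal parts of the run the ERCC6L2-/- only share was 14.3% (2 of 14), 5.71% (2 of 35), 32.5% (13 of 40) and 24% (6 of 25). The second part, the one most densely covered in both lists (16.3% and 17.1% of bases), had no control-only peak among 33. The widest ERCC6L2-/- only peak, chr10:41418037-41419765, was 1729 bases wide with 5 box cores and a score of 281.7, and the widest control-only peak, chr10:41567506-41569537, was 2032 bases wide, had 3 box cores and was at the ceiling.

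Shared peaks kept their edges more closely on chromosome 10 than on chromosome 7. In alpha-satellite of chromosome 10, 84 pairs matched 1 to 1, with a median shift of 22.5 bases per edge and a median of 94.0% of the union shared. On chromosome 7 the 73 pairs had a median shift of 178 bases and shared 74.8% of the union. These are descriptions, and the difference was not tested. The ERCC6L2-/- peak was the wider one in 49 of the 84 and in 41 of the 73 pairs.

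**Figure D4:**
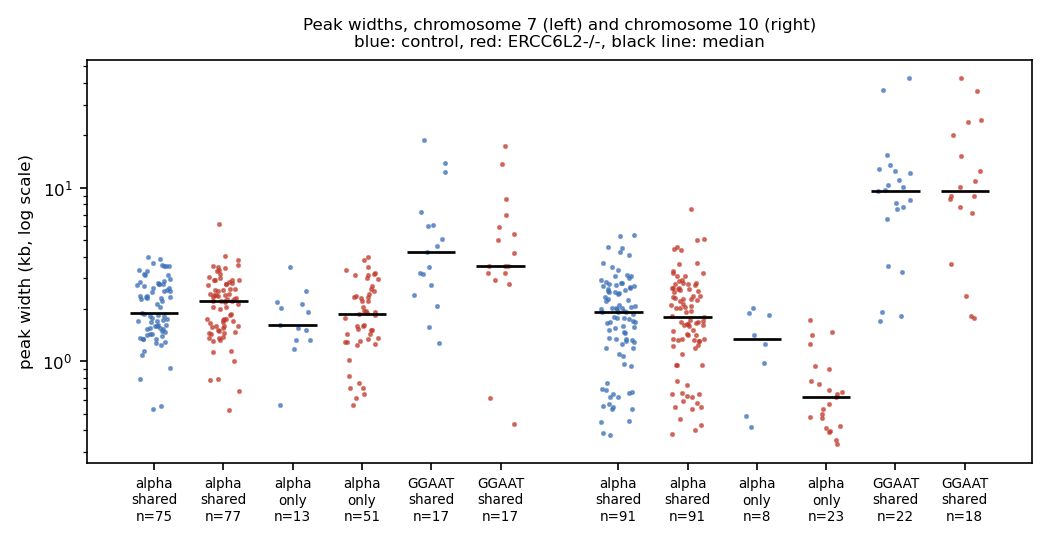
Width of each peak (kb, log scale) on chromosomes 7 and 10 by sequence kind and class, with 1 point per peak and a black line at the median. ERCC6L2-/- only peaks in alpha-satellite have a median of 1873 bases on chromosome 7 and 620 bases on chromosome 10, and peaks in GGAAT satellite are the widest on both.

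A smaller share of the ERCC6L2-/- only peaks than of the shared ones was at the ceiling of the score. The score of a merged peak is its p-value as −log10, and 310.6 was the highest value written below the ceiling. On chromosome 7, 10 of the 51 ERCC6L2-/- only peaks in alpha-satellite were at the ceiling (19.6%, 11.02 to 32.5%) against 43 of 77 shared ones (55.8%, 44.7 to 66.4%). On chromosome 10 it was 9 of 23 (39.1%, 22.2 to 59.2%) against 81 of 91 (89.0%, 80.9 to 93.9%). Of the control-only peaks in alpha-satellite 1 of 13 was at the ceiling on chromosome 7 and 4 of 8 on chromosome 10. Over all sequence kinds, the median ERCC6L2-/- only peak lay 11.2 kb from the nearest control peak on chromosome 7 and 6.44 kb on chromosome 10. On chromosome 7, 28 of 53 were more than 10 kb from any control peak, and on chromosome 10, 7 of 23 were. Such distances depend on the density of control peaks, which in alpha-satellite was 23.2 per Mb on chromosome 7 and 37.9 on chromosome 10. The difference in distance between the chromosomes was not tested.

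The centromeres of chromosomes 3, 6 and 16 held few peaks in alpha-satellite. The longest run of alpha-satellite was 1632 kb on chromosome 3, 1274 kb on chromosome 6 and 1968 kb on chromosome 16, against 2658 kb on chromosome 7 and 1906 kb on chromosome 10. They are built of a 17-monomer repeat of 2892 bases, an 18-monomer repeat of 3057 bases and a 10-monomer repeat of 1699 bases in turn. These runs held 2.30, 2.16 and 2.74 box cores per kb, against 2.74 on chromosome 7 and 2.53 on chromosome 10. The run of chromosome 6 held no peak in either list. That of chromosome 3 had 1 control and 2 ERCC6L2-/- peaks, and that of chromosome 16 had 2 and 3. Per Mb of all alpha-satellite in the window, chromosome 10 had 37.9 control and 43.6 ERCC6L2-/- peaks and chromosome 7 had 23.2 and 33.7, while chromosomes 3, 6 and 16 had between 0.751 and 3.22 in either list. Of 23 chromosomes, chromosome 10 ranked 1 and chromosome 7 ranked 3 by density of control peaks, and 2 and 5 by density of ERCC6L2-/- peaks.

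**Figure D5:**
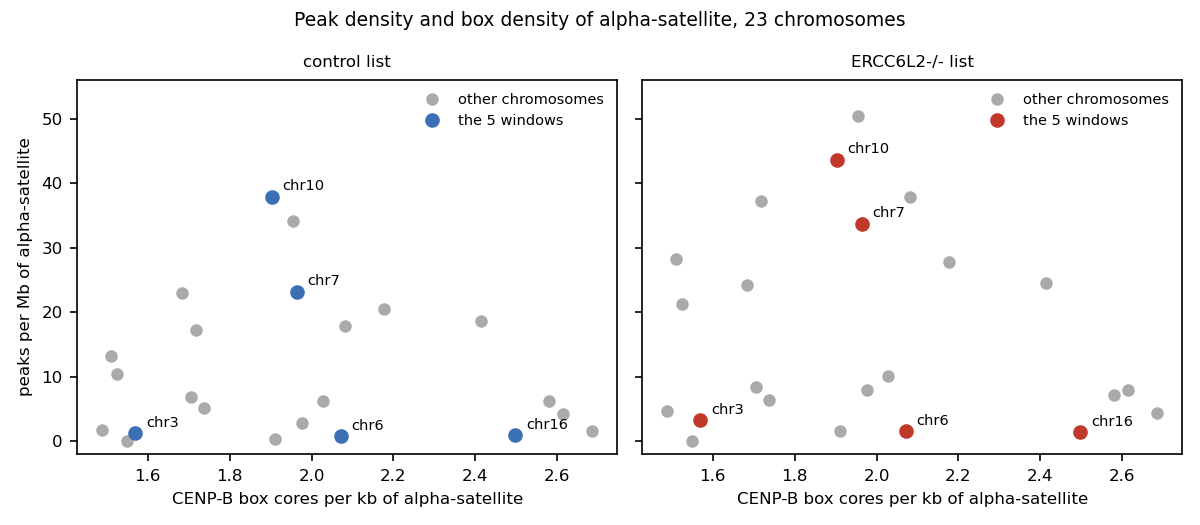
Peaks per Mb of alpha-satellite (vertical axis) against CENP-B box cores per kb of the same sequence (horizontal axis), 1 point per chromosome (22 autosomes and X), for the control list (left) and the ERCC6L2-/- list (right). Chromosomes 10 and 7 lie high at 1.90 and 1.96 boxes per kb, and chromosomes 6 and 16, with 2.07 and 2.50 boxes per kb, lie near 0.

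Chromosomes 3, 6 and 16 had few alpha-satellite peaks, and the other peaks of chromosome 16 were 14 control and 15 ERCC6L2-/- peaks in GGAAT satellite and 1 control peak outside both. On chromosome 3 the 4 control peaks were all shared, and 3 of the 6 ERCC6L2-/- only peaks stood in a row at chr3:90797836-90950501, in alpha-satellite outside the longest run and without a box core. The widest ERCC6L2-/- only peak of the chromosome, chr3:92975517-92977493, was 1977 bases wide with 4 box cores and a score of 144.2. The remaining ERCC6L2-/- only peaks were chr3:91637592-91639322, 1731 bases wide with 5 box cores and a score of 72.8, and chr3:93708366-93709062, 697 bases wide with 2 box cores and a score of 150.2. The 1 control peak in the longest run of chromosome 3 (chr3:93470362-93470804) and its ERCC6L2-/- match lay within 1 kb of an assembly gap. They were placed in alpha-satellite by position, but their sequence had no box core, a GC content of 22.6% and 22.7%, and words of 50 bases that all occur once in the reference. On chromosome 6 both lists had a peak at the ceiling that started at the edge of an assembly gap (chr6:60230134-60231058 in control), and the ERCC6L2-/- only peak, chr6:60239465-60240522, had no box core and a score of 123.4. On chromosome 16 the ERCC6L2-/- only peak, chr16:36895814-36896395, was 582 bases wide with 2 box cores and a score of 184.02. Both lists had 2 shared peaks at the distal end of the array, within 1 kb of a gap. The control-only peak, chr16:35598719-35599311, was outside both satellites.

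The share of peaks with a CENP-B box was high in both classes. The core of the box, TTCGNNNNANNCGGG on either strand, was found in 75 of the 82 ERCC6L2-/- only peaks in alpha-satellite (91.5%, 83.4 to 95.8%) and in 170 of the 175 shared ERCC6L2-/- peaks (97.1%, 93.5 to 98.8%), a difference of -5.68 percentage points that did not pass the test (two-sided Fisher's exact p = 0.0578). On chromosome 7 the core was in 50 of 51 and 77 of 77 peaks, and on chromosome 10 in 21 of 23 and 89 of 91. Wider peaks have more room for a box, and per kb the pooled counts were 2.67 cores in ERCC6L2-/- only and 2.71 in shared peaks. As background, 80.6% of consecutive tiles of 2000 bases in alpha-satellite of the windows held the core, against 2.02% of such tiles over chromosomes 1 to 22 and X. The tiles include alpha-satellite outside the longest runs. The longest runs of chromosomes 7 and 10 held 2.74 and 2.53 cores per kb, close to the peaks. Without chromosome 7 the shares were 80.6% and 94.9% (Fisher's exact p = 0.0229), and without the 8 peaks within 1 kb of an assembly gap they were 92.5% and 98.2% (Fisher's exact p = 0.0328). Without chromosome 3, where the core was in 3 of 6 and 2 of 4 peaks, they were 94.7% and 98.2% (Fisher's exact p = 0.206). Pooled shares also reflect how many peaks each chromosome gives to each class. Tested 1 chromosome at a time, none passed (smallest adjusted Fisher's exact p = 0.904). In the central 300 bases alone the direction turned, at 75.6% and 72.6% (Fisher's exact p = 0.651).

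How far a read can be placed on 1 chromosome differs between arrays. Words of 50 bases were taken from the alpha-satellite peaks and counted in the reference. In the ERCC6L2-/- list 16.8% of the words of chromosome 7 peaks and 13.3% of those of chromosome 10 peaks also occurred on another chromosome, and the chromosome most often shared was the other of the pair (9.96% and 10.4% of words). The median word occurred 1995 times for chromosome 7 and 397 times for chromosome 10, and 2.41% and 5.33% of words occurred once. Few words thus mark a single position. Parts of an array, stretches, edge shifts and distances also depend on how reads of repeated words were placed. In the alpha-satellite peaks of chromosomes 1, 5 and 19, which share their repeats, 93.7 to 97.9% of words occurred on another chromosome. How the reads of repeated words were placed is not stated, and its part in any result here was not tested.

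Beside the other centromeres, chromosome 10 had one of the lower ERCC6L2-/- only shares. In alpha-satellite this share was 31.9% in the 5 windows (82 of 257, 26.5 to 37.8%), 57.4% on chromosomes 1, 5 and 19 (213 of 371, 52.3 to 62.3%), 40.9% on chromosome 12 (67 of 164, 33.6 to 48.5%) and 50.5% over all 18 other chromosomes (503 of 996, 47.4 to 53.6%). Among the 14 chromosomes with at least 20 ERCC6L2-/- peaks in alpha-satellite, where the share ran from 17.2% to 70.8%, chromosome 10 had the second lowest and chromosome 7 the sixth lowest. The control-only share was 10.8% in the windows and 17.3% over the 18 others. The ratio of ERCC6L2-/- to control peaks in alpha-satellite was 1.32 in the windows, 2.13 on chromosomes 1, 5 and 19 and 1.67 over the 18 others. No test was run between the windows and other chromosomes.

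No member peak overlapped an annotated gene. GENCODE release 44 places 10 genes in the window of chromosome 3, 2 in that of chromosome 6, 8 in that of chromosome 10 and 64 in that of chromosome 16, of which 2, both on chromosome 3, are protein-coding, and the window of chromosome 7 holds none.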

How the data were processed

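The deposited files were 2 consensus lists and 2 lists of unique peaks. The authors trimmed the reads with Trim Galore, aligned them with Bowtie2 to hg38 (patch 12), removed duplicates with Picard, called peaks in each sample with MACS2 and merged replicates with MSPC. The deposited scores are −log10 p-values; positions are in hg38. Thresholds, input handling and the placement of multi-mapped reads are not given in the sources used here. The 24 control-only and 84 ERCC6L2-/- only members were all in the authors' unique lists.

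Sequences came from the same build (pysam 0.24.0, samtools 1.23.1). Alpha-satellite runs were 1000-base windows with at least 50% identity at shifts of 1 or 2 monomers and under 42% at pentamer shifts, joined over 10 kb and kept from 10 kb. Higher-order repeats were found with edlib 1.3.9.post1, and tests were run with scipy 1.17.1. Alternatives changed the overlap, the score filter, chaining, the alpha-satellite definition and the box pattern. The overlap and box searches were tested on simulated data. Named peaks were the widest of each class and window, and stretches of ERCC6L2-/- only peaks in a row. The plan had named the longest chain of ERCC6L2-/- only peaks at gaps of at most 100 kb instead. That chain, chr7:59217143-59708414, had 15 such peaks, with 17 shared ERCC6L2-/- peaks and 17 control peaks inside it. Members and lists were chosen with earlier results of these data known. Hg38 centromeres are modelled sequence, so positions within an array are those of the model.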

Additional observations from a re-analysis of the deposited data

How the results depend on the processing

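No paired analysis was possible because each genotype is given as 1 merged list, and for the same reason no replicate could be left out. A reciprocal overlap of 50% gave ERCC6L2-/- only shares of 35.6% in all 5 windows and 47.0% on chromosome 7, with 1 pair of chromosomes past the threshold in place of 4, and control-only shares of 20.6% in all windows, 27.5% on chromosome 7 and 16.4% on chromosome 10. The score filter kept ceiling peaks of the list in question, each still classed against the full other list. With it the ERCC6L2-/- only shares were 10.4% in all windows, 14.9% on chromosome 7 and 8.33% on chromosome 10. There were 0 pairs past the threshold and a difference between chromosomes 7 and 10 of 6.59 percentage points (Fisher's exact test, adjusted p = 0.622). The control-only shares were then 2.87% in all windows and 1.82% on chromosome 7, and their difference between chromosomes 7 and 10 turned to -2.07 points. Chained at 10 kb, chromosome 10 had an ERCC6L2-/- only share of 10.7%, the difference from chromosome 7 was 17.7 points (Fisher's exact test, adjusted p = 0.0638) and 1 pair passed. In alpha-satellite only, 1 pair passed. With alpha-satellite defined by a shift of 1 monomer alone, an alternative chosen after seeing the data that keeps fewer peaks, the share was 36.4% in all windows, the difference between chromosomes 7 and 10 was 23.2 points (Fisher's exact test, adjusted p = 0.194) and 0 pairs passed. The difference in the CENP-B box between ERCC6L2-/- only and shared peaks was -14.3 points without chromosome 7 and -3.51 points without chromosome 3. It was -5.72 points without peaks near assembly gaps (also chosen after seeing the data) and 3.04 points in the central 300 bases. The cause of these changes was not tested. For all 5 windows, chromosomes 7 and 10 and the tests, 104 values were recomputed. Of these, 80 kept their direction and side of the threshold, stayed within the interval of the main value or were a like count of pairs. A count of pairs past the threshold was held to be alike where it stayed the same, 0 included, or changed little, such as 3 in place of 4. For chromosomes 3, 6 and 16 alone 45 further values stayed within the interval of the main value and 9 moved beyond it. For the ERCC6L2-/- only share, the adjusted p of Fisher's exact test of chromosome 7 against 10 ranged from 0.000381 to 0.622.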
